A study of Mus musculus with 12 samples.

Results

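The comparison described here was the net change in the epithelium of the mouse conjunctival fornix between postnatal day 9 (PN9) and postnatal day 20 (PN20), taken from 6 of the 12 arrays of the series. The 3 wild-type PN20 arrays were set against the 3 wild-type PN9 arrays, chosen by their titles, over all 45101 probe sets. The other arrays were 3 of wild-type PN14 fornix and 3 of Klf4CN fornix at PN14, a conditional null for the zinc-finger factor Klf4. All mice were of mixed genetic background, and wild-type mice carried no further allele or treatment named in the labels. The epithelial layer was cut out by laser capture, and its RNA went through 2 rounds of amplification before hybridization. The labels call the samples independent but do not say how many animals each held, so the p-values below measure the spread between these samples.

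The conjunctival fornix is the blind pocket between eyelid and eyeball. Its stratified epithelium holds the goblet cells that secrete the gel-forming mucins of the tear film, while its surface cells carry membrane-bound mucins, and the sheet seals, hydrates and defends the ocular surface. In mice the eyelids open between the youngest and the oldest age measured here, which exposes this tissue to air, light and microbes. Klf4 is a transcription factor of maturing epithelia, and its role in this tissue was the question of the series as its title states it.

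A gene was called changed when its log2 change passed an adjusted p of 0.05 in a limma fit across 14148 genes on all 12 arrays, which shared 1 estimate of the spread. Each gene was read from its brightest kept probe set, signals are on the linear scale after each array was scaled to a common median, and fold changes are on the log2(signal + 16) scale. By this rule 3437 genes (24.3%) were called, 1908 higher at PN20 (13.5%) and 1529 lower (10.8%). The split depended on the scaling: the values as deposited moved the median log2 change of all genes by -0.13, from which 1559 genes were called higher and 2277 lower. Under that scaling 40.6% of the calls were higher, while the common median gave 55.5%. Among changes over 4-fold, the genes higher at PN20 were the more numerous under both: 177 (1.25%) against 41 lower (0.29%) with the common median, and 140 against 63 as deposited. Changes over 2-fold did not keep their split: 1037 were higher (7.33%) and 668 lower (4.72%) with the common median, but 784 higher and 990 lower as deposited. The median log2 change of all genes was 0.02. The PN20 and PN9 arrays did not overlap in 6160 genes (43.5%), 3551 higher at PN20 (25.1%) and 2609 lower (18.4%). A lack of overlap, given for single genes below, was thus common among all genes.

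The arrays differed in RNA length and in other tissues. The 3' to 5' signal ratio of the beta-actin control probe sets, which is high where amplified RNA is short, was 12.7 ± 3.45 at PN20 and 34.9 ± 11.4 at PN9 (SD, n = 3 each), with ranges of 9.76 to 16.5 and 24.2 to 46.8. The ranges did not overlap (exact permutation test, two-sided p = 0.1, the smallest that 3 against 3 allows), so age and RNA length cannot be told apart. The same ratio for the Gapdh control probe sets differed less, at 11.0 to 12.9 at PN20 and 13.9 to 18.7 at PN9, also without overlap. With the beta-actin ratio as a covariate (the actin covariate) 232 genes were called. Counts with it are given beside the lists below, where a direction without one had 0. Arrays of 1 age correlated at 0.976 to 0.978 at PN20 and 0.941 to 0.964 at PN9. Xist RNA, made in female cells, was high on 1 of 3 arrays at each age. Epithelial keratins were bright throughout. Krt4 had 8911, 10106 and 9181 on the PN20 arrays and 9844, 10512 and 6387 on the PN9 arrays. So was the corneal keratin Krt12, at 6733, 1357 and 8579 on the PN20 arrays and 7905, 10720 and 7284 on the PN9 arrays, and the lens crystallin Crybb1, at 1961, 1889 and 1973 on the PN20 arrays and 4694, 442 and 1831 on the PN9 arrays. Both were Present on all 6 arrays, where a Present call is the authors' statement that a probe set was detected.

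Goblet cell genes rose together. Of the 23 goblet cell and gel-forming mucin genes tested, 18 were called higher at PN20 and 0 lower, beside 13.5% and 10.8% of all genes. Their median log2 change was 1.88. Another 10 of the list on the array were not kept by the filter on low signal, for which signal on the 3 arrays of 1 age was enough. Here and in the lists below that had 0 genes called by limma in 1 direction, 0 or 1 passed an unadjusted p of 0.05 in that direction, except skeletal muscle, where 3 did. Under the actin covariate 10 were called higher. Muc5ac, the chief gel-forming mucin of conjunctival goblet cells, had signals of 2764, 3896 and 2502 on the PN20 arrays, against 208, 104 and 16.5 on the PN9 arrays. All PN20 arrays lay far above all PN9 arrays, among which replicate 3 was lowest, and the log2 change was 4.98 ± 0.50 (SE; adjusted p = 4.8e-05), or 31.5-fold. Gcnt3, a branching enzyme of mucin O-glycans, had 496, 471 and 308 at PN20, against 24.4, 10 and 4.90 at PN9. Galnt7, another enzyme of mucin O-glycosylation, had 1544, 1647 and 1658 at PN20, against 163, 185 and 145 at PN9. Neither gene's groups overlapped, and the changes were 15.4-fold and 9.07-fold (adjusted p = 5.35e-06 and 0.000128). Agr2, without which mouse intestine cannot assemble its mucin, rose 7.89-fold, and the surface tetraspanin Tspan8 rose 15.2-fold.

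The transcription factors of the goblet list were much dimmer than its mucins. Spdef, which drives goblet cell differentiation in mouse gut, airway and conjunctiva, had 201, 238 and 178 at PN20, against 29, 21 and 27.3 at PN9. The groups were far apart, with a change of 5.30-fold (adjusted p = 4.16e-05). Foxa3, a forkhead factor that can induce goblet cell genes in mouse airway, had 173, 209.6 and 155 at PN20 and 27, 15.4 and 16.5 at PN9, a change of 5.49-fold (adjusted p = 4.8e-05). Foxa1 was called higher as well, with a log2 change of 1.88 ± 0.43 (SE). In bulk samples of this kind more cells of a type and more RNA per cell cannot be told apart.

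**Figure D1:**
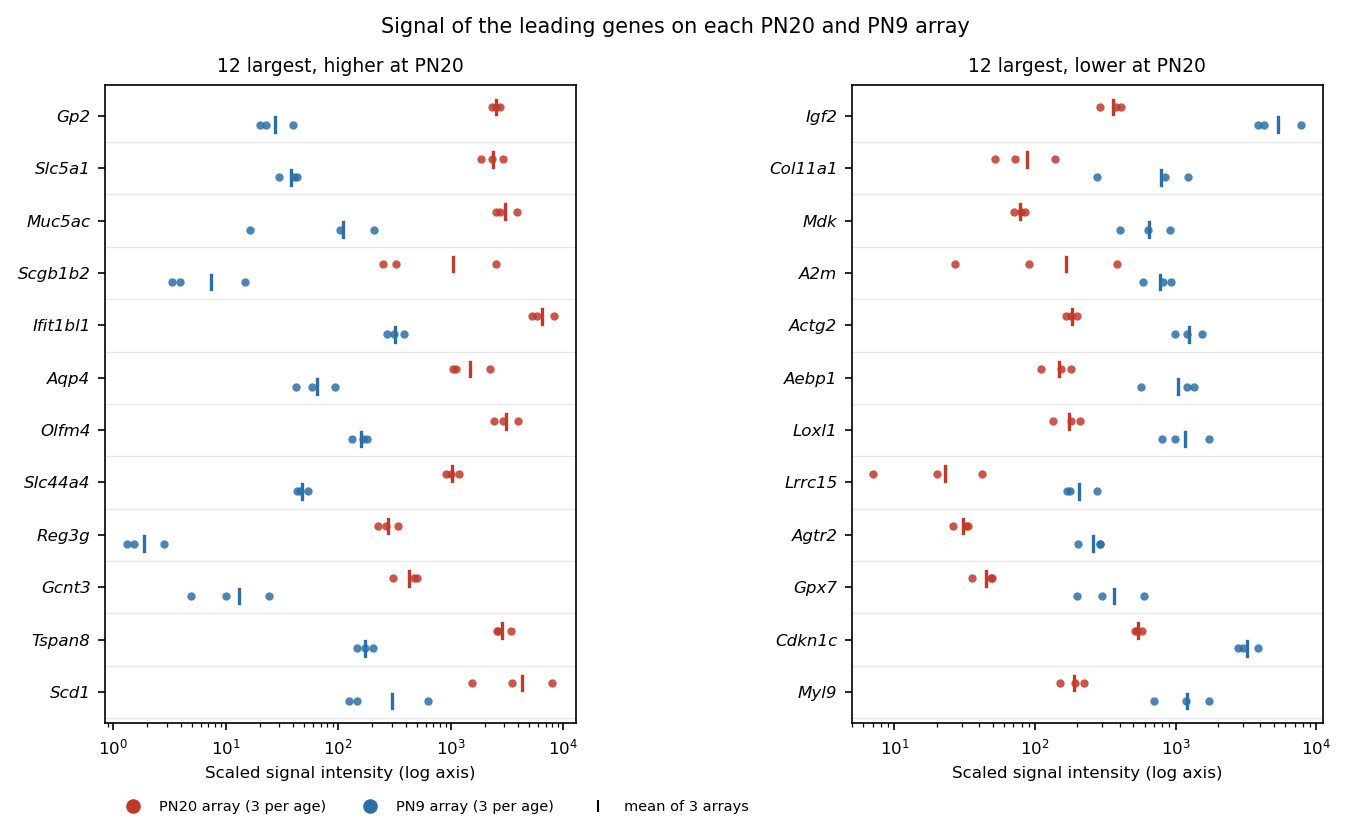
Scaled signal intensity (log axis) of the 12 most changed genes each way, with each of the 3 PN20 arrays (upper row of a gene) and 3 PN9 arrays (lower row) as a point and their mean as a tick. The genes were chosen among called genes whose PN20 and PN9 arrays do not overlap, clone names left out, so the gap between the ages follows from the choice. Scgb1b2, Scd1, A2m and Lrrc15 spread most among the PN20 arrays.

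Membrane mucins and their enzymes formed a smaller group. Of 16 tested, 7 were called higher and 0 lower, with a median log2 change of 0.65, and 2 were called higher under the actin covariate. Muc1 had 2080, 2582 and 2619 at PN20, against 462, 481 and 424 at PN9, with no overlap and a change of 5.16-fold (adjusted p = 7.46e-05). Muc16, the large barrier mucin of the ocular glycocalyx, had 173, 203 and 141 at PN20, against 46.9, 29.8 and 11.7 at PN9, again without overlap (4.34-fold, adjusted p = 0.000395). Muc4 was the brightest of them, at 7782, 3170 and 9089 on the PN20 arrays and 2354, 778 and 1621 on the PN9 arrays. Its groups did not overlap but replicate 2 was lowest at both ages, and its call (adjusted p = 0.0324) was lost without PN20 replicate 1 or 3 or without PN9 replicate 2 or 3.

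Some surface keratins rose. Of 12 simple and mucosal keratins 4 were called higher and 0 lower, and 4 were higher under the actin covariate. Krt13, a keratin of wet stratified mucosa, had 2113, 1863 and 2704 at PN20, against 599.7, 1121 and 232 at PN9, without overlap (3.97-fold, adjusted p = 0.00988). Krt78 rose 7.87-fold and Krt80 4.18-fold, and Krt23, Present on no PN9 array, rose at least 8.60-fold. Of 18 basal and hemidesmosome genes 2 were called higher (11.1%) and 3 lower (16.7%), near the 13.5% and 10.8% of all genes, and 0 were called under the actin covariate. The basal factor Trp63 had 3188, 2416 and 2930 at PN20, against 1200, 1192 and 1220 at PN9, a rise of 2.33-fold (adjusted p = 0.0115). Itgb4 and Plec, 2 parts of the hemidesmosome that anchors basal cells, fell: Itgb4 had 114, 100 and 136 at PN20, against 312, 237 and 219.7 at PN9 (log2 change -1.03 ± 0.22, SE), and Plec had 1381, 1597 and 1672 at PN20, against 3786, 3973 and 2695 at PN9 (log2 change -1.14 ± 0.20, SE). The counts for this list depended on single arrays, with 4 higher and 5 lower without Klf4CN replicate 3, and 1 higher without PN20 replicate 1 or PN9 replicate 3.

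Cornified envelope genes build the outermost layer of dry skin. Of 26 tested 1 was called higher (3.85%) and 3 lower (11.5%), against 13.5% and 10.8% of all genes, and 0 were called under the actin covariate. Another 11 of the list on the array were not kept by the filter on low signal. The median log2 change was -0.39, and -0.05 without PN9 replicate 2. Asprv1, a protease that cleaves filaggrin in skin, had 6609, 7020 and 6823 at PN20, against 1402, 1856 and 1205 at PN9, a rise of 4.62-fold. Sbsn, a secreted epidermal protein, had 183, 231 and 151 at PN20, against 739, 761 and 427 at PN9, without overlap (log2 change -1.66 ± 0.25, SE, adjusted p = 0.000561). Without PN9 replicate 3 the list had 9 lower, and without PN9 replicate 2 it had 2 higher and 1 lower. Hair follicle genes, another skin list, had 0 called higher, and 0 called either way under the actin covariate. Of 17 tested 2 were called lower (11.8%), near the 10.8% of all genes. That 2 was 0 without PN20 replicate 1, 1 without PN20 replicate 2 or 3 or PN9 replicate 1, 4 without PN9 replicate 2 or Klf4CN replicate 3, and 5 without PN14 replicate 3. Their summed signal was 322 to 400.0 at PN20 and 422 to 1834 at PN9, and their part in the cornified values was not tested.

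Genes of the tight junction, which seals the sheet, were called higher in 16 of 27 cases and lower in 1, with a median log2 change of 1.0 and 2 higher under the actin covariate. Cldn7, a claudin of epithelial cell borders, had 3102, 2783 and 2826 at PN20, against 248, 397 and 282 at PN9, with no overlap and a change of 9.14-fold (adjusted p = 5.48e-05). Cldn2, which forms paracellular pores for cations and water, had 203, 249.7 and 199.6 at PN20 and 22.5, 4.97 and 9.98 at PN9. It was Present on no PN9 array and its change was at least 8.08-fold (adjusted p = 5.91e-05), while its other kept probe set had a log2 change of -0.23. Cldn23 rose 6.85-fold, the polarity protein Pard6b 5.01-fold and occludin (Ocln) 3.12-fold. Epcam, an adhesion protein that binds claudins, had 3165, 1951 and 2709 at PN20, against 960.4, 347 and 1229 at PN9. Its groups did not overlap (adjusted p = 0.00636) but its other kept probe set had a log2 change of -0.02. The member that fell was Cldn5, the claudin of blood vessels, with a log2 change of -1.24 ± 0.31 (SE), in the same direction as the other vessel genes described below.

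Water and ion transport genes rose in 14 of 27 cases and fell in 2, with a median log2 change of 0.99 and 1 higher under the actin covariate. Aqp5, the water channel of wet epithelia and glands, had 2127, 2235 and 3006 at PN20, against 182, 286 and 108 at PN9. The PN20 arrays all lay above the PN9 arrays, and the change was 12.5-fold (adjusted p = 4.8e-05). Aqp4, known best from brain glia, had 1105, 2252 and 1058 at PN20, against 58.9, 93.1 and 42.5 at PN9, a change of 17.9-fold that was 3.42 on the log2 scale at PN14 already. Aqp3 rose 3.84-fold and the chloride channel Cftr 3.62-fold, with signals of 561, 592 and 479.7 at PN20, against 141, 166 and 112 at PN9. The members that fell were Aqp1, the water channel of vessel walls and red cells (log2 change -1.48 ± 0.24, SE), and the anion exchanger Slc4a2 (log2 change -0.77 ± 0.21, SE). Without PN20 replicate 3 or PN9 replicate 2, 1 of them was called.

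Nutrient transporters held the second-largest change of the comparison. Slc5a1, the sodium-glucose cotransporter of gut and kidney, had 1848, 2335 and 2912 at PN20, against 40.4, 43.1 and 29.9 at PN9. It was near the floor on every PN9 array and rose 43.8-fold (adjusted p = 5.35e-06), and its other kept probe set had a log2 change of 5.13. Slc44a4, a choline and thiamine pyrophosphate carrier, had 912, 1175 and 1013 at PN20, against 46.2, 43.1 and 53.7 at PN9, a change of 16.4-fold. Slc28a3, a nucleoside carrier, rose 10.1-fold and Slc6a14, a carrier of neutral and cationic amino acids, 7.31-fold. In all 10 of 26 such genes were called higher and 0 lower, with 3 higher under the actin covariate.

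Defence proteins of mucosal surfaces rose, and 1 of them showed the largest change of all. Gp2, which binds fimbriated bacteria on gut M cells and is secreted by the pancreas, had 2718, 2546 and 2326 at PN20, against 39.9, 20.1 and 22.6 at PN9. All PN20 arrays were about equally high and the change was 59.5-fold (adjusted p = 3e-05). Reg3g, a lectin that kills Gram-positive bacteria, was Present on no PN9 array, with 225, 343 and 266 at PN20 and 2.83, 1.53 and 1.31 at PN9, and rose at least 13.2-fold (adjusted p = 0.000331). Pigr, the receptor that carries immunoglobulin A across epithelia, had 637, 1133 and 981 at PN20, against 68.2, 57.7 and 44.4 at PN9, a change of 12.6-fold. Pglyrp1, which binds bacterial peptidoglycan, had 2974, 7134 and 5248 at PN20, against 712, 217 and 261 at PN9, a change of 13.4-fold. Of 22 secreted antimicrobial and lectin genes tested 9 were called higher and 0 lower, and 2 higher under the actin covariate. Another 17 of the list on the array were not kept by the filter on low signal. The list's median log2 change was 0.48, and it was 0.73 without PN20 replicate 1 and 0.79 without PN9 replicate 1. Without Klf4CN replicate 3 there was 1 lower.

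Sensors and alarm cytokines went the same way, with 12 of 27 called higher and 0 lower, and 1 higher under the actin covariate. Il33, an alarm cytokine stored in the nuclei of barrier cells, had 1093, 1131 and 890.0 at PN20, against 178, 177 and 169 at PN9. The spread within each age was small and the change was 5.50-fold (adjusted p = 4.41e-05). Il1a was Present on no PN9 array, at 65, 83.9 and 242 on the PN20 arrays and 8.20, 2.01 and 3.77 on the PN9 arrays, and PN20 replicate 3 was the highest (at least 5.59-fold, adjusted p = 0.00373). The same replicate was highest for Tnf, at 44, 75.2 and 197 on the PN20 arrays and 1.76, 3.06 and 3.15 on the PN9 arrays, and for the NF-kappa-B regulator Nfkbiz, at 1887, 2336 and 4089 on the PN20 arrays and 519, 533 and 467 on the PN9 arrays. These rose at least 4.79-fold and 5.06-fold. Cd14, a receptor for bacterial lipopolysaccharide, rose 5.56-fold, a call lost without PN20 replicate 2 or 3 or PN9 replicate 2.

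Interferon response genes were called higher in 16 of 39 cases and lower in 1, with a median log2 change of 0.90 and 2 higher under the actin covariate. They mark the answer of a cell to interferons, which act through a DNA element in the promoters of these genes. Ifit1bl1, of the Ifit family that binds foreign RNA, had 5868, 8335 and 5227 at PN20, against 383, 273 and 311 at PN9. Its groups were far apart, with a change of 19-fold (adjusted p = 5.35e-06). Irf1, a transcription factor of interferon-gamma responses, had 2265, 2275 and 2268 at PN20, against 422, 515 and 455 at PN9, a change of 4.77-fold with almost no spread at PN20. Ifit1 had 263, 583 and 466 at PN20, against 73.5, 55.7 and 36.8 at PN9, and Gbp2, a guanylate-binding protein of pathogen defence, had 800.3, 1292 and 1200 at PN20, against 335, 299 and 213 at PN9. They rose 6.19-fold and 3.71-fold (adjusted p = 0.00205 and 0.0082). The member that fell was Ifit2, with a log2 change of -0.84 ± 0.21 (SE).

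The promoters of these genes were read from RefSeq (GRCm38.p6), from 250 bases before to 50 after each gene's start, for the core of the interferon-stimulated response element, which is GAAA, any 2 bases and GAAA, on either strand. It stood in 45.9% of the 37 promoters of the tested interferon genes, 56.2% of the 16 of genes called higher and 42.1% of the 19 of genes not called. It stood in 3.44% of all 32851 promoters given and in 2.96% of the 14490 of all genes tested. The windows below show the match in capitals with 20 bases on each side, on the strand of the gene and 5' to 3', and each lies before the gene's start. They were chosen to set 4 genes that rose beside 2 with the same element that were not called.
Ifit1bl1 (chr19:34602043-34602092, minus strand, GRCm38.p6): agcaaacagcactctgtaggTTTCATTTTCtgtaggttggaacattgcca
Ifit1 (chr19:34640765-34640833, plus strand, GRCm38.p6): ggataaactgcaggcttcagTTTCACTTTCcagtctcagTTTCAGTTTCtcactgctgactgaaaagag
Gbp2 (chr3:142620584-142620633, plus strand, GRCm38.p6): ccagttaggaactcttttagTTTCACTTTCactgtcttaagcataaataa
Irgm2 (chr11:58214893-58214942, plus strand, GRCm38.p6): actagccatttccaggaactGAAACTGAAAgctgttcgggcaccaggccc
Igtp (chr11:58199502-58199551, plus strand, GRCm38.p6): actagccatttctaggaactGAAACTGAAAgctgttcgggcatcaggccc
Rsad2 (chr12:26456543-26456592, minus strand, GRCm38.p6): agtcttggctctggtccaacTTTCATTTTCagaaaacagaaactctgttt
Irgm2 and Igtp, 2 immunity-related GTPases, have nearly the same letters around the element. Irgm2 had 235, 197 and 199 at PN20, against 60.6, 89.3 and 63.1 at PN9, without overlap (log2 change 1.39 ± 0.28, SE, adjusted p = 0.0032). Igtp had 104, 125 and 129 at PN20, against 129, 128 and 92 at PN9, with overlapping arrays and a log2 change of 0.04 ± 0.26 (SE, adjusted p = 0.939). Rsad2, which blocks virus replication, had 251, 422 and 458 at PN20, against 166, 367 and 106 at PN9, with overlapping arrays (log2 change 0.90 ± 0.42, SE, adjusted p = 0.137). A match is a description of the letters and does not show that a factor binds there.

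**Figure D2:**
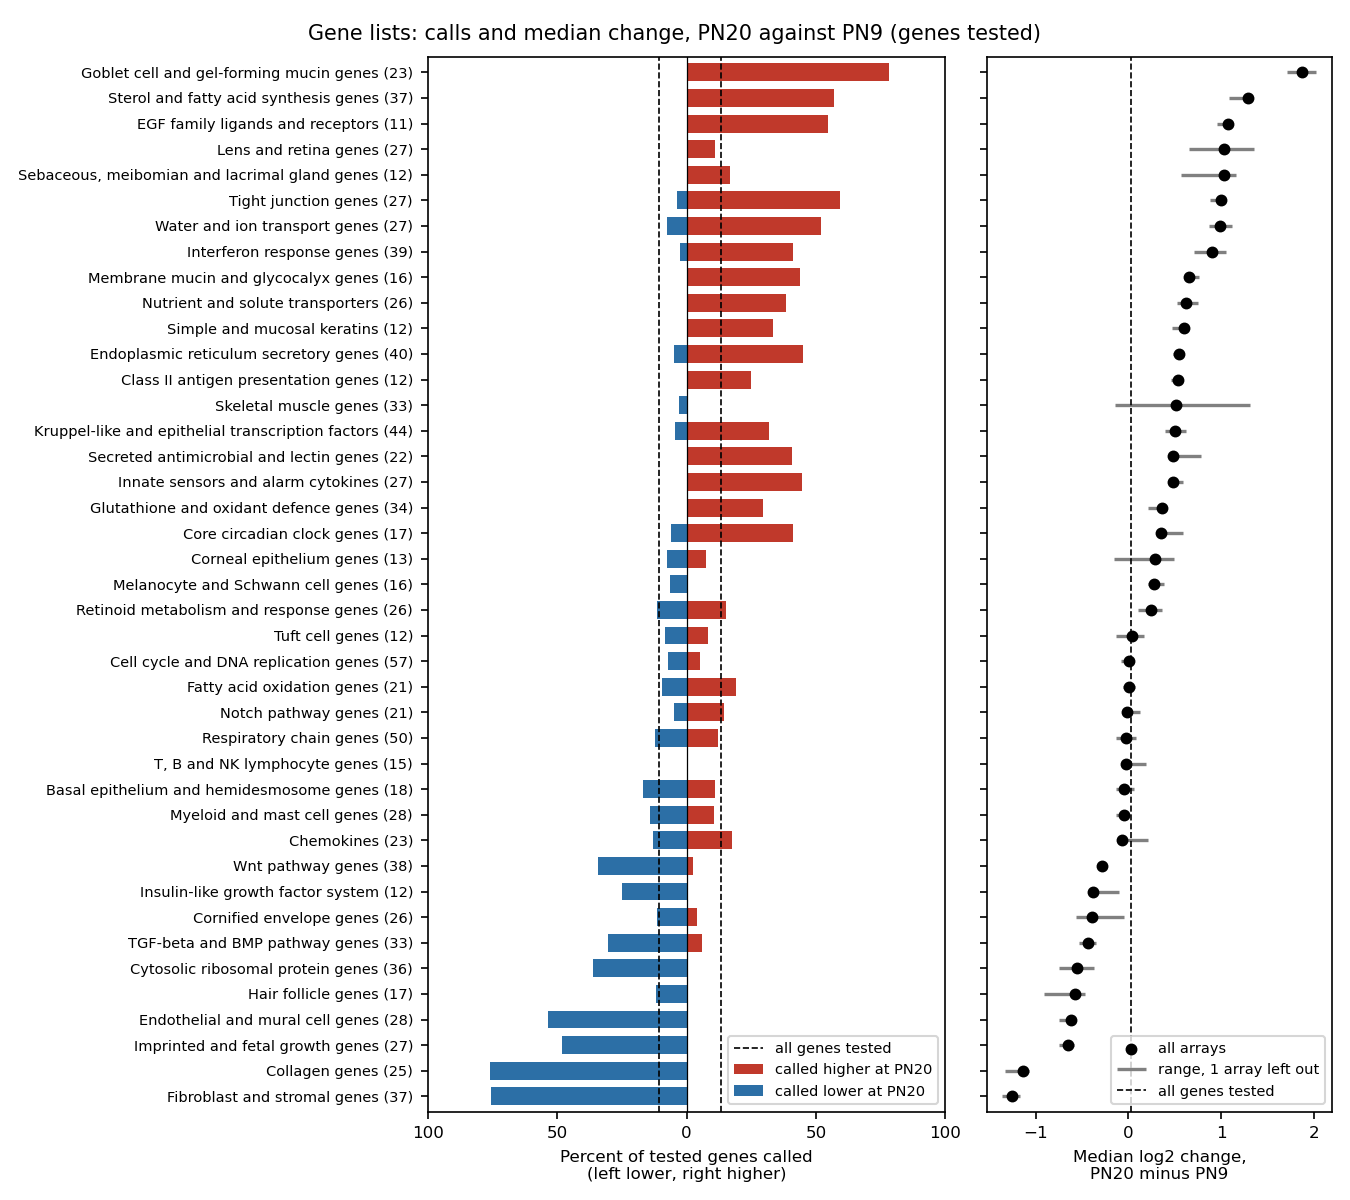
Percent of the tested genes of each list called higher (right) or lower (left) at PN20, with dashed lines for all genes tested (13.5% and 10.8%), and the median log2 change, PN20 minus PN9, with its range when each of the 12 arrays was left out in turn. The goblet cell list has the highest median (1.88) and the fibroblast and stromal list the lowest (-1.26).

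Genes of sterol and fatty acid synthesis rose broadly, with 21 of 37 called higher and 0 lower, a median log2 change of 1.30 and 9 higher under the actin covariate. Without Klf4CN replicate 3 there was also 1 lower. Cyp51, a lanosterol demethylase, had 1448, 933 and 1223 at PN20, against 102, 188 and 104 at PN9. The groups did not overlap and the change was 8.39-fold (adjusted p = 4.16e-05). Sc5d, which acts near the end of cholesterol synthesis, had 1848, 1558 and 1847 at PN20, against 328, 185 and 164 at PN9, and Sqle, squalene epoxidase, had 1846, 1215 and 1976 at PN20, against 274, 227 and 260.0 at PN9. They rose 7.61-fold and 6.17-fold. The fatty acid genes varied much more between arrays: Scd1, a desaturase, had 7937, 1531 and 3473 at PN20, against 624, 146 and 126 at PN9, and Elovl4, an elongase of very long chains, had 1485, 331 and 439 at PN20, against 32.6, 14.7 and 43.1 at PN9. PN20 replicate 1 was highest for both. Their changes of 14.3-fold and 13.9-fold were both lost without PN20 replicate 1 or PN9 replicate 2. Gland genes varied in a like manner. Scgb1b2, a secretoglobin, had 251, 328 and 2549 at PN20, against 3.32, 14.8 and 3.94 at PN9, where it was Present on no array. Its change of at least 25.8-fold was lost without PN20 replicate 2 or 3 or any of the PN9 arrays. The sebaceous, meibomian and lacrimal list summed to 7772 to 13172 at PN20 and 6322 to 10616 at PN9, overlapping. Of 12 tested 2 were called higher (16.7%), near the 13.5% of all genes, and 0 under the actin covariate. Without PN20 replicate 3 or any 1 of the PN9 arrays 0 were called, without PN20 replicate 1 there was 1, and without PN14 replicate 2 or 3 there were 4. The part of gland cells in the lipid genes was not tested. The sterol regulatory motif TCACNCCAC stood in 0 of 22 promoters of the lipid genes called higher, and in 1.24% of all promoters given. It stood in 1 of 38 promoters of all lipid genes tested (2.63%). For so rare a motif 22 promoters are too few to show a lack.

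Glutathione and oxidant defence genes rose in part. Of 34 such genes 10 were called higher and 0 lower, with 3 higher under the actin covariate, and without PN9 replicate 3 there were also 3 lower. Gsr, which restores reduced glutathione, had 644, 603 and 545 at PN20, against 131, 119 and 208 at PN9. No array overlapped and the change was 3.72-fold (adjusted p = 9.23e-05). Of 26 retinoid genes 4 were called higher (15.4%) and 3 lower (11.5%), near the 13.5% and 10.8% of all genes, with 0 higher and 1 lower under the actin covariate. Adh7, a retinol-oxidizing enzyme of surface epithelia, had 2586, 2447 and 2726 at PN20, against 468, 871 and 338 at PN9, a rise of 4.87-fold. Aldh1a3, which makes retinoic acid, had 1184, 983 and 1277 at PN20, against 265, 254 and 271 at PN9, a rise of 4.14-fold. Crabp1, which binds retinoic acid in embryonic mesenchyme, went down: it had 29.2, 46.1 and 51.2 at PN20, against 236, 304 and 105 at PN9 (log2 change -1.90 ± 0.35, SE). Without PN9 replicate 3 there were 5 lower.

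The secretory machinery moved by small amounts. Of 40 endoplasmic reticulum genes 18 were called higher and 2 lower, with a median log2 change of 0.55. Without PN20 replicate 2 there were 11 higher, while the actin covariate left 0 higher and 1 lower. Dnajb9, a co-chaperone induced by misfolded protein, had 1509, 1519 and 1721 at PN20, against 446, 542 and 556 at PN9, a rise of 3.02-fold. The stress sensor Ern1 had 895, 749 and 822 at PN20, against 296, 256 and 248 at PN9, a rise of 2.96-fold. Its groups did not overlap. The members that fell were Kdelr3 and Kdelr2, receptors that return escaped proteins to the endoplasmic reticulum. Kdelr3 had 150.4, 178 and 154 at PN20, against 654, 952 and 524 at PN9 (log2 change -2.0 ± 0.21, SE, adjusted p = 5.54e-05), and Kdelr2 had a log2 change of -0.70 ± 0.21 (SE). Of the 2, 1 was called without PN20 replicate 1 or 3 or PN9 replicate 1 or 2.

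Klf4 itself had signals of 7088, 7139 and 7165 on the PN20 arrays, against 2755, 2892 and 3396 on the PN9 arrays. The PN20 arrays were nearly equal and all lay above the PN9 arrays, with a change of 2.37-fold (adjusted p = 0.000588), but its other kept probe set had a log2 change of -0.13. Of the 44 Kruppel-like and epithelial transcription factors tested 14 were called higher and 2 lower, with a median log2 change of 0.51 and 1 higher under the actin covariate. Elf3, an ETS factor of differentiating epithelia, had 1548, 1541 and 1702 at PN20, against 535, 485 and 449 at PN9, without overlap (3.20-fold). The grainyhead-like factors Grhl3 and Grhl1, which direct barrier formation in mouse skin, rose 3.10-fold and 2.81-fold. Hopx, a homeodomain protein without DNA binding, had 6214, 6545 and 6871 at PN20, against 1746, 2077 and 1208 at PN9, a rise of 3.97-fold. The members that fell were Klf10 (log2 change -0.84 ± 0.27, SE) and Irx3 (log2 change -0.81 ± 0.28, SE). That count of 2 was 0 without PN20 replicate 1 or 2 or PN9 replicate 1 or 2, 1 without PN14 replicate 1 or 2, and 4 without Klf4CN replicate 3 or PN9 replicate 3.

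Fetal growth genes fell, and Igf2 fell most of all named genes. Igf2, the imprinted fetal insulin-like growth factor, had 408, 378 and 291 at PN20, against 4263, 7801 and 3865 at PN9. The groups were far apart, and the log2 change was -3.77 ± 0.27 (SE), 13.6-fold lower (adjusted p = 5.35e-06). Cdkn1c, an imprinted cell cycle inhibitor, had 578, 529 and 514 at PN20, against 3017, 3832 and 2770 at PN9, 5.75-fold lower. Peg3, an imprinted zinc-finger gene, had 1378, 976 and 1123 at PN20, against 3881, 4877 and 3920 at PN9, 3.62-fold lower, and Mdk, the growth factor midkine, had 70.5, 84.4 and 79.2 at PN20, against 637, 902 and 399.6 at PN9, 6.70-fold lower. Of the 27 imprinted and fetal growth genes tested 0 were called higher and 13 lower, with a median log2 change of -0.65 and 3 lower under the actin covariate. Without Klf4CN replicate 2 or 3, 1 was also called higher. The list's summed signal was 15613 to 18008 at PN20 and 36329 to 38659 at PN9. Of 57 cell cycle and replication genes 3 were called higher (5.26%) and 4 lower (7.02%), below the 13.5% and 10.8% of all genes. Their median log2 change was 0.00, and 0 were called under the actin covariate. Mki67, a marker of cycling cells, had 1325, 1109 and 1210 at PN20 and 1610, 1173 and 1268 at PN9, with overlapping arrays. The 4 lower were 7 without PN9 replicate 3, 1 without PN20 replicate 3, PN9 replicate 1 or PN9 replicate 2, and 0 without PN20 replicate 1, and the 3 higher were 5 without Klf4CN replicate 3.

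Many genes of the tissue beneath the epithelium fell. Of 37 fibroblast and stromal genes 28 were called lower and 0 higher, with a median log2 change of -1.26, and 10 were lower under the actin covariate. Their summed signal was 33208 to 35507 at PN20 and 68066 to 91108 at PN9. Of the 37, 36 had a Present call at both ages, while Mfap2 had none at PN20. On all 3 PN20 arrays 35 were Present, and on all 3 PN9 arrays 37. Loxl1, a cross-linker of elastin, had 135, 179 and 209.8 at PN20, against 991, 1726 and 797 at PN9, 5.99-fold lower (adjusted p = 5.91e-05). Twist1, a transcription factor of mesenchyme, had 77.6, 75.2 and 81.2 at PN20, against 443, 322 and 408 at PN9, 4.30-fold lower. Neither gene's groups overlapped. Of 25 collagen genes 19 were called lower and 0 higher, with a median log2 change of -1.14 and 8 lower under the actin covariate. Col11a1, a fibril collagen of cartilage and young connective tissue, had 139, 52.1 and 71.6 at PN20, against 834, 275 and 1230 at PN9, 6.93-fold lower. Col18a1, of basement membranes, had 319, 358 and 297 at PN20, against 1428, 1239 and 1224 at PN9, 3.86-fold lower (adjusted p = 3.71e-05). The part of captured stroma in the values of genes that epithelium also makes was not tested. Nor was its part in the fetal growth genes above or the Wnt and TGF-beta genes below.

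Vessel wall and smooth muscle genes fell alongside. Of 28 endothelial and mural genes 15 were called lower and 0 higher, with a median log2 change of -0.62 and 1 lower under the actin covariate. Their summed signal was 7468 to 9780 at PN20 and 15477 to 20413 at PN9, and Pecam1 was Present on none of the 6 arrays. Myh11, the smooth muscle myosin, had 287, 312 and 256 at PN20, against 1483, 1849 and 1536 at PN9, 5.43-fold lower (adjusted p = 0.00011). Tagln, a smooth muscle actin-binding protein, had 228, 261 and 120.3 at PN20, against 1013, 1400 and 890.2 at PN9, 5.23-fold lower, and Egfl7, secreted by endothelium, had 76.4, 101 and 60.4 at PN20, against 266, 411 and 250.4 at PN9, 3.39-fold lower. The groups of all 3 stayed apart.

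More Wnt and TGF-beta pathway genes were called lower than higher. Of 38 Wnt genes 13 were called lower and 1 higher, with a median log2 change of -0.29, and 1 was lower under the actin covariate. Without PN20 replicate 2 there were 8 lower. Wnt6, a ligand of embryonic and skin epithelia, had 73.8, 58.7 and 75.9 at PN20, against 411, 586 and 228 at PN9, 4.67-fold lower (adjusted p = 0.000157). Lgr6, a receptor of skin stem cells, had 35.2, 27.5 and 30.7 at PN20, against 120.2, 161 and 122 at PN9, 3.17-fold lower. The secreted inhibitors Dkk2, Wif1 and Sfrp2 fell by log2 changes of -1.28 ± 0.30, -1.20 ± 0.29 and -0.94 ± 0.18 (SE). The member that rose, Ctnnb1 (log2 change 0.42 ± 0.14, SE), was not called without any 1 of the PN20 arrays, PN9 replicate 1 or 2 or PN14 replicate 2 or 3, while 2 were higher without Klf4CN replicate 2 or 3 or PN9 replicate 3. Of 33 TGF-beta and BMP genes 10 were called lower and 2 higher, Smad2 and Bmpr2, with a median log2 change of -0.44. There were 6 lower without any 1 of the PN20 arrays or without PN9 replicate 2, 4 without PN9 replicate 1, and 1 under the actin covariate. Ltbp2, a matrix protein of the latent TGF-beta binding family, had 44.5, 41.2 and 35.2 at PN20, against 154, 351 and 251 at PN9, 4.55-fold lower. Fstl1, a secreted follistatin-like protein, had 3113, 4149 and 2882 at PN20, against 10554, 11214 and 8825 at PN9, 3.03-fold lower, without overlap.

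**Figure D3:**
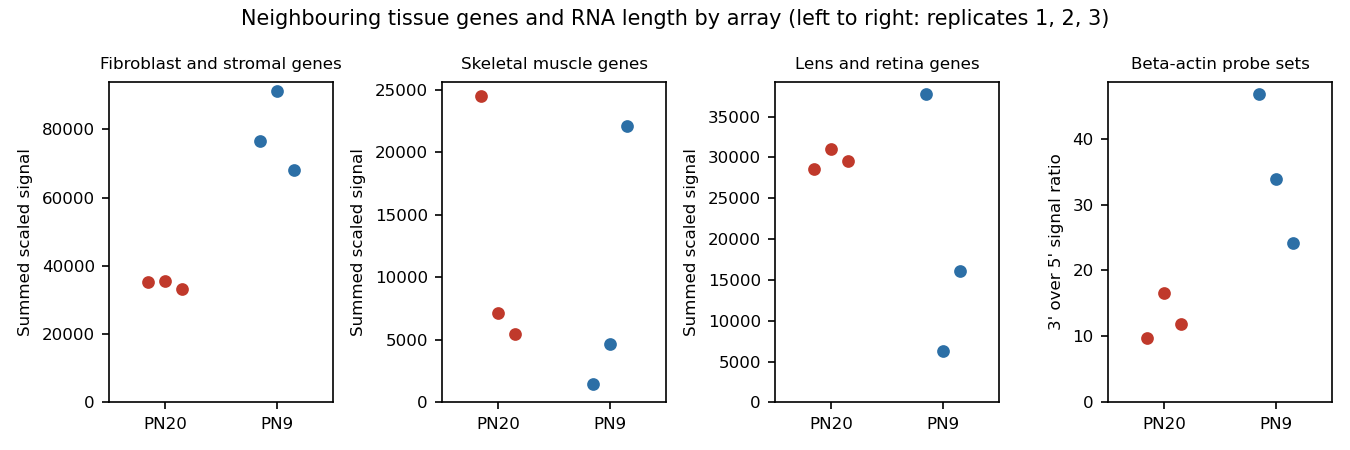
Summed scaled signal of 3 gene lists and the beta-actin 3' to 5' ratio, with 1 point for each of the 3 PN20 and 3 PN9 arrays, in the order of replicates 1, 2 and 3. Stromal signal and the actin ratio are lower on all PN20 arrays than on any PN9 array, while muscle and lens and retina signal overlap between the ages.

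Ribosomal protein genes fell without a firm count. Of 36 tested 13 were called lower and 0 higher, with a median log2 change of -0.56, but without PN9 replicate 3 there were 25, without PN20 replicate 3 there were 6, without PN9 replicate 1 or 2 there were 5, and without PN20 replicate 1 there were 4. The actin ratio as a covariate gave a median of -0.01 and 0 calls. Rps15 had 1138, 1426 and 1322 at PN20, against 5295, 9709 and 2541 at PN9, where replicate 3 was the lowest (3.90-fold lower, adjusted p = 0.00254). The part of RNA length in these values was not tested.

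Other tissues gave signal in amounts that varied between arrays. Of 29 lens and retina genes on the array, 24 were Present on all 3 PN20 arrays and 14 on all 3 PN9 arrays. Skeletal muscle genes summed to 5471 to 24518 at PN20 and 1510 to 22111 at PN9, with 0 of 33 called higher and 1 lower, Des, which smooth muscle also makes, and 0 called under the actin covariate. Without PN9 replicate 3 there were 9 higher, without Klf4CN replicate 3 there were 2 and without Klf4CN replicate 1 there was 1. Myh1, a fast muscle myosin, had 6147, 1703 and 1737 at PN20 and 18.9, 305 and 2868 at PN9, so that PN20 replicate 1 and PN9 replicate 3 carried most of it. Lens and retina genes summed to 28630 to 31061 at PN20 and 6305 to 37714 at PN9, with a median log2 change of 1.03 (0.65 without PN9 replicate 2). Under the actin covariate 1 was called higher. Of 27 tested 3 were called higher in the main fit (11.1%), near the 13.5% of all genes. There were 7 without Klf4CN replicate 2, 6 without Klf4CN replicate 3 and 1 without PN20 replicate 2. Gnat1, the rod transducin of the retina, had 216, 586 and 184 at PN20 and 11.3, 1.91 and 5.43 at PN9, where it was Present on no array (at least 12.6-fold, adjusted p = 0.000966). Sag, rod arrestin, rose 6.85-fold and the photoreceptor calcium sensor Rcvrn at least 4.25-fold. PN20 replicate 2 was highest in all 3, and Sag was lost without it or PN9 replicate 1, and Rcvrn without it or PN9 replicate 1 or 2. Lymphocyte genes had 0 of 15 called in either direction by limma and 0 past an unadjusted p of 0.05, and Cd3d, Cd3e, Cd4, Cd79a and 8 others of 25 were Present on none of the 6 arrays.

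Wild-type PN14 arrays gave an age between PN9 and PN20. In the same fit, PN14 against PN9 gave 611 genes higher (4.32%) and 374 lower (2.64%), and PN20 against PN14 gave 94 higher (0.664%) and 96 lower (0.679%). For each gene called between PN20 and PN9, the share of its log2 change that had been reached at PN14 was computed. Among the 1908 genes called higher the median share was 0.62, and 1135 of them lay between 0.5 and 1, 572 between 0 and 0.5, 141 above 1 and 60 below 0. Among the 1529 called lower the median was 0.56. The 177 genes over 4-fold higher had a median share of 0.70, with 20 of them under 0.5, and the 41 over 4-fold lower had a median of 0.46, with 24 under 0.5. That the shares mostly lie between 0 and 1 follows in part from choosing genes by the whole change, since the PN14 and PN20 values are both set against the same PN9 arrays.

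The genes named next had the smallest or the largest shares among changes over 4-fold, clone names left out. Among those that rose, the smallest share was that of Foxa3, at 27, 15.4 and 16.5 at PN9, 33.3, 21.1 and 46.9 at PN14 and 173, 209.6 and 155 at PN20, with a share of 0.19 at PN14. Among those that fell, Myl9, a smooth muscle myosin light chain, had 1183, 1719 and 697 at PN9, 1566, 993 and 752 at PN14 and 192, 221 and 150.4 at PN20 (share 0.04). Cnn1, calponin of smooth muscle, had 755, 818 and 418 at PN9, 823, 469 and 520.5 at PN14 and 123, 122 and 162 at PN20 (share 0.06), and Myh11 and the fibroblast gene Pi16 had shares of 0.19 and 0.19. At the other end, Muc4 had 2354, 778 and 1621 at PN9, 7800, 10851 and 8358 at PN14 and 7782, 3170 and 9089 at PN20, a share of 1.27. Sptssb, a subunit of the enzyme that starts sphingolipid synthesis, had 76.9, 99.7 and 47.4 at PN9, 601, 631 and 599.7 at PN14 and 515, 592 and 456 at PN20 (share 1.09). Among the genes already named, Ifit1bl1 had a share of 0.95, Slc5a1 of 0.81, Gp2 of 0.69, Muc5ac of 0.62, Igf2 of 0.54 and Reg3g of 0.37. Gsr, with 117, 146 and 132 at PN14, had a share of -0.08, so that its rise lay after PN14.

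**Figure D4:**
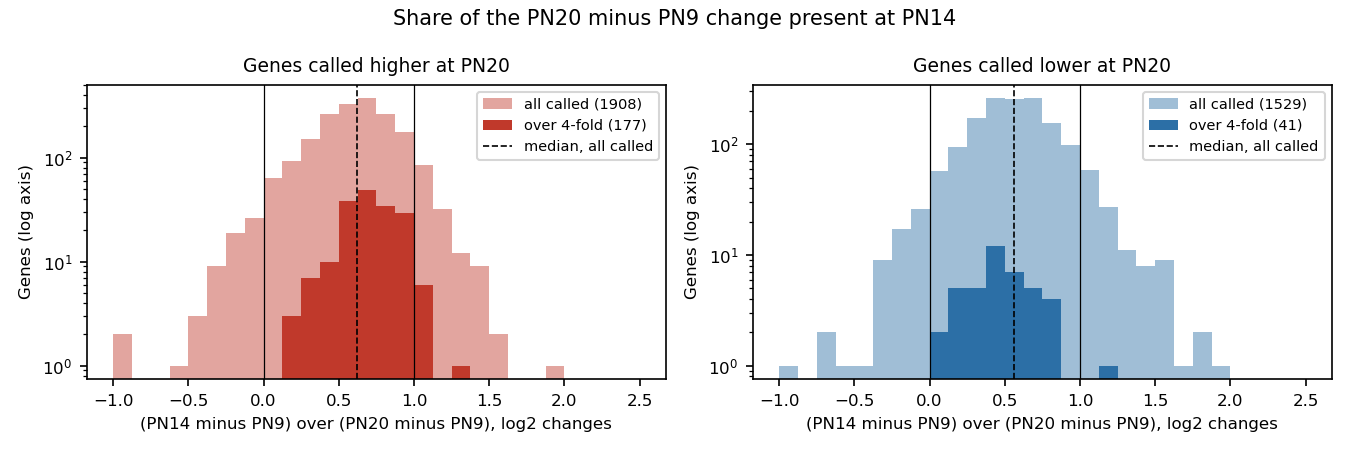
Share of the log2 change, PN20 minus PN9, that was present at PN14, for genes called higher (left, 1908) and lower (right, 1529), as counts on a log axis. Values beyond -1 or 2.5 are drawn at those ends, dark bars are changes over 4-fold, thin lines mark shares of 0 and 1, and dashed lines mark the medians of all called genes (0.62 and 0.56).

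The lists followed different courses over the 3 ages. The summed signal of the goblet cell genes was 4793 to 6158 at PN9, 10756 to 14716 at PN14 and 22478 to 27246 at PN20, with gaps between all ages. Interferon response genes stood at 6254 to 9028 at PN9, 18830 to 22009 at PN14 and 20177 to 26733 at PN20, so that PN14 and PN20 overlapped. Membrane mucins likewise overlapped at the later ages, at 10520 to 13062 at PN9, 23362 to 31095 at PN14 and 22297 to 30116 at PN20. Stromal genes were lower at each later age, at 68066 to 91108 at PN9, 50442 to 62016 at PN14 and 33208 to 35507 at PN20. Skeletal muscle genes were highest at PN14, at 1510 to 22111 at PN9, 27264 to 43855 at PN14 and 5471 to 24518 at PN20. The part of captured muscle in the PN14 values was not tested.

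**Figure D5:**
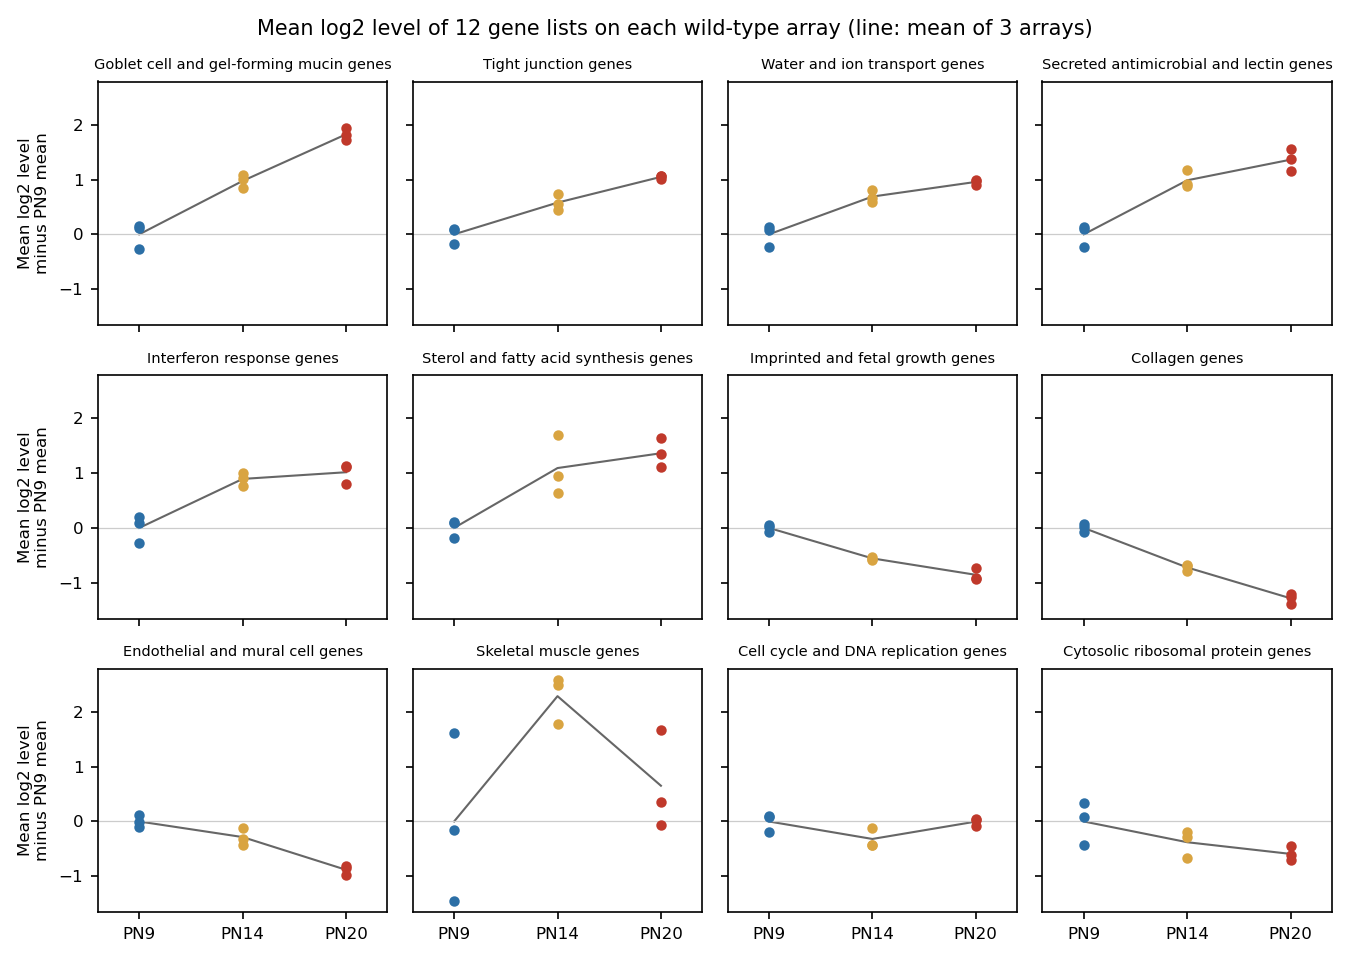
Mean log2 level of the tested genes of 12 lists on each wild-type array, minus the mean of the 3 PN9 arrays, at PN9, PN14 and PN20, with 1 point per array and a line through the means. Goblet cell genes climb by similar steps, and interferon genes reach their PN20 range by PN14. Skeletal muscle genes scatter within each age and are higher on all PN14 arrays than on any PN9 or PN20 array.

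The authors' deposited table codes the probe sets that passed their own rule for these ages: Present on all 3 arrays of the higher group, no overlap, a mean over 2-fold apart and a score above 5 in size over 9 pairwise array comparisons. It holds 3261 such probe sets (7.23% of all), 1479 higher at PN20 and 1782 lower. In a limma fit over the 30657 kept probe sets, 5174 (16.9%) were called, and 2905 were in both sets, which is 89.1% of the authors' and 56.1% of the limma calls. All 2905 had the same direction.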

How the data were processed

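Mouse conjunctival forniceal epithelium was measured on 12 Affymetrix arrays, 3 for each group. The authors derived the deposited intensities in GCOS, linear and with every array brought to a 2% trimmed mean of 150, per the deposited readme. The deposited score adds 1 for an increase and takes 1 for a decrease in each of 9 array pairs, and the other deposited columns hold the number of Present calls per group and a code for the authors' rule. The image analysis settings and genome build are not given in the sources used here.

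Intensities were scaled to the median of the kept probe sets, those above the 40th percentile of their array on at least 3 arrays (30657), and analysed as log2(signal + 16). Names came from the platform annotation: 34958 probe sets had 1 symbol, 932 several and 9211 none, and 34754 were updated by gene ID from RefSeq. Each gene was read from its brightest kept probe set; 23 of 1811 called genes with several kept probe sets had called ones in opposite directions. limma 3.58.1 in R 4.3.3 fitted 1 mean per group with an intensity trend, leaving 8 residual degrees of freedom, with Benjamini-Hochberg adjustment over all genes, and the script was tested on simulated data. Where the lower group had no Present call, a fold is a lower bound ("at least") against the dimmest detected signal, and no fold is given where neither group was Present. The number of arrays limits the precision: the median SE of a log2 change was 0.25.

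Named genes were Klf4, the 12 largest changes each way without overlap, up to 5 leading members of each list, the 5 smallest and 5 largest shares at PN14, the 5 smallest adjusted p, and members that a small count or a promoter window singled out after their values were seen. The gene lists and this comparison were chosen with earlier results of these data known. Promoter sequences are from RefSeq, GRCm38.p6. Alternatives changed the offset, scaling, filter, probe set rule, arrays fitted, variance model and weights, tested a minimum fold, added a replicate block or the actin ratio, or left out each array.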

Additional observations from a re-analysis of the deposited data

How the results depend on the processing

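The 3437 calls, 1908 higher and 1529 lower, stayed within 1.5 times under all alternatives but these and those that left out an array. With the actin ratio as a covariate 232 genes were called, 132 higher and 100 lower, and 226 were among the 3437 with the same direction. With array weights there were 5785, 3053 higher and 2732 lower. Against a minimum log2 change of 1 there were 110, 84 higher and 26 lower. Leaving out each array in turn gave 2079 (without PN20 replicate 1) to 4330 (without Klf4CN replicate 3) calls, 1185 (without PN20 replicate 1) to 2468 (without Klf4CN replicate 3) higher and 894 (without PN20 replicate 1) to 1903 (without PN9 replicate 3) lower. The causes were not tested, beyond the smaller number of arrays. In all, 1678 of the called genes passed without every array in turn, as did 144 of the 181 named ones. None of the 181 named genes that were called changed direction under any alternative, while 136 of them were no longer called with the actin ratio and 135 against the minimum fold. Among genes not called, the log2 changes of Igtp and Krt4 turned to -0.10 and -0.05 as deposited, from 0.04 and 0.11. The scaling moved the split of the calls, as given above: quantile normalization called 1762 higher and 2004 lower. Same-numbered arrays did not deviate together (correlations of -0.21, 0.03 and -0.15, against -0.12 to 0.25 for arrays of different numbers). With 3 arrays per age this cannot show whether the numbers pair the arrays. A replicate block gave 3343 calls. Signal near background limits the dim genes: 231 called genes have a bound in place of a fold, and 59 were Present at neither age.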

Other observations

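Growth factor, clock and oxygen-using genes were not described above. EGF family ligands and receptors were called higher in 6 of 11 cases and lower in 0, with a median log2 change of 1.07 and 0 called with the actin ratio as a covariate, and 0 were lower at an unadjusted p of 0.05. Ereg, an EGF receptor ligand of wounded epithelia, had 736, 561 and 928 at PN20, against 179, 137 and 220.1 at PN9, a rise of 3.87-fold (adjusted p = 0.00092), without overlap. Tgfa had 297, 183 and 251 at PN20, against 108, 75.5 and 68 at PN9, a rise of 2.59-fold. Core clock genes were called higher in 7 of 17 cases and lower in 1, with 0 called under the actin covariate. The lower one was Cry1, a call lost without any 1 of the PN20 arrays, PN9 replicate 1 or 2, PN14 replicate 1 or 2 or Klf4CN replicate 1. Nr1d2, a repressor in the clock loop, had 2947, 2080 and 2561 at PN20, against 646, 772 and 630.3 at PN9, and Per3 had 628, 486 and 513 at PN20, against 173, 250.5 and 172 at PN9. They rose 3.62-fold and 2.62-fold; the hour of collection is not among the labels and its part was not tested. Respiratory chain genes were called higher in 6 of 50 cases and lower in 6, near the 13.5% and 10.8% of all genes, with a median log2 change of -0.03 (-0.13 to 0.08 as each array was left out) and 0 called under the actin covariate. Ndufa4 had 2281, 3020 and 2310 at PN20, against 958, 761 and 758 at PN9, a rise of 3.03-fold. The 6 lower were 16 without PN9 replicate 3, 3 without PN20 replicate 2 or 3, 2 without PN20 replicate 1 or PN9 replicate 1, and 1 without PN9 replicate 2.

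Of 23 chemokines 4 were called higher (17.4%) and 3 lower (13.0%), near the 13.5% and 10.8% of all genes, and 0 were called under the actin covariate. The count of lower ones was 1 without PN20 replicate 1 or PN9 replicate 2. Cxcl17, a mucosal chemokine, had 629.6, 789 and 532 at PN20, against 129, 216 and 105 at PN9, and Ccl28, which draws cells that make immunoglobulin A, had 210.0, 194 and 192 at PN20, against 46, 40.2 and 52.3 at PN9. They rose 4.12-fold and 3.46-fold. Cxcl13, which draws B cells, had 31.4, 48 and 54.2 at PN20, against 236, 344 and 119 at PN9, 3.86-fold lower. Of 28 myeloid and mast cell genes 3 were called higher (10.7%) and 4 lower (14.3%), near the 13.5% and 10.8% of all genes. Their median log2 change was -0.05, with 1 higher under the actin covariate. There were 6 higher without Klf4CN replicate 3, and 2 lower without PN20 replicate 3 or PN9 replicate 2 or 3. Arg1, arginase, had 1475, 1275 and 1703 at PN20, against 167, 288 and 125 at PN9, a rise of 7.51-fold. The macrophage receptor Csf1r had 1198, 1458 and 1082 at PN20, against 1784, 1682 and 1875 at PN9. It was lower on all PN20 arrays, as were 18.4% of all genes. Kera, keratocan of the corneal stroma, had 527, 131 and 556 at PN20, against 880.0, 2358 and 1339 at PN9, 3.98-fold lower, a call lost without PN9 replicate 2. Olfm4, a secreted glycoprotein of mouse gut epithelium that is in none of the lists, had 2936, 3921 and 2411 at PN20, against 167, 133 and 179 at PN9, a rise of 17.4-fold. Agtr2, an angiotensin receptor of fetal mesenchyme also in none of the lists, had 32.2, 26 and 33.4 at PN20, against 203, 287 and 288 at PN9, 5.87-fold lower.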
